A study of Populus yunnanensis and Populus davidiana with 24 samples.

Results

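The comparison set stem cuttings of Populus yunnanensis at 120 h against cuttings of the same species at 96 h, with 3 RNA sequencing libraries at each time, 6 of the 24 libraries of the series. The other 18 libraries were P. yunnanensis at 0 and 48 h and Populus davidiana at 0, 48, 96 and 120 h, 3 each. All cuttings were made from annual branches stripped of buds and leaves, and all carried the same treatment label, cutting, with no uncut or otherwise treated control among them. RNA came from the stem of the cutting. A gene entered the comparison when it reached 1 FPKM (fragments scaled to gene length and to the total of mapped fragments) in at least 3 of the 6 libraries, which 21769 of 43836 listed genes did. Another 12725 genes were listed at 0 in all 6 libraries and 9342 lay between these limits.

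A poplar cutting makes adventitious roots from cells of its stem near the cambium and vascular tissue. The wound and the loss of the shoot tip are followed by accumulation of auxin at the cut base, founder cells divide to form a root primordium, and the primordium later breaks through the bark. Genes of the WOX family, homeobox transcription factors named in the title of the series, are known from Arabidopsis to act in founder cells and in the stem cells of meristems. The interval from 96 to 120 h asked which stem genes moved during the last sampled day. The deposited table lists identifiers without gene names, so genes are given here by identifier, and neither the WOX family nor the marker genes of stem tissues could be examined by name. Whether the libraries hold the labelled tissue was therefore not tested.

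No gene passed an adjusted p of 0.05 between 120 and 96 h in P. yunnanensis with limma, 0 of 21769 genes or 0%. At an unadjusted p under 0.05 there were 987 genes, 4.53% of those tested, just under the 5% at which that threshold is set. Of these, 283 (1.3%) had a higher estimate at 120 h and 704 (3.23%) a lower one, and with quantile normalization the split was 680 and 757. Over all genes tested, the log2 change had a median of 0.046, and 17999 genes (82.7%) had an estimate under 0.5 in size. The test compared group means of log2(FPKM + 1) with a spread shared by the 9 P. yunnanensis libraries at 48, 96 and 120 h, and the Benjamini-Hochberg adjustment covered all of these genes. Limma called 0 genes from the 6 compared libraries alone, where 1335 had an unadjusted p under 0.05, and also 0 genes from all 12 libraries of the species, where 649 did.

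By the median, libraries of different times lay about as far apart as replicates at 120 h, and farther apart than replicates at 96 h. The root mean square difference in log2(FPKM + 1) across genes had a median of 0.713 over the 9 pairs of a 120 h and a 96 h library. Its median was 0.707 over the 3 pairs at 120 h and 0.601 over the 3 pairs at 96 h. Pearson correlations across genes ranged from 0.886 to 0.971 between the times, from 0.924 to 0.953 within 120 h and from 0.935 to 0.953 within 96 h. Genes are not independent replicates, so these values describe the libraries and carry no test.

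Replicate 2 at 120 h stood apart from its group. It is placed at 120 h by its label alone, and whether it was sampled at that time was not tested, which bears on every 120 h mean and on the count of 0 called genes. It correlated with the 96 h libraries at 0.942 to 0.971, closer than with either library of its own time, at 0.924 with replicate 1 and 0.934 with replicate 3. Replicate 1 at 120 h correlated with the 96 h libraries at 0.886 to 0.922, and replicate 3 at 0.911 to 0.939. In 5386 of the 21769 tested genes replicates 1 and 3 at 120 h were both above every 96 h library. Replicate 2 was above them too in 946 of these (17.6%). In 2965 of the 21769 genes replicates 1 and 3 were both below every 96 h library, and replicate 2 was too in 1292 (43.6%). For replicate 1 the same shares were 75.2% of 1258 genes and 68.7% of 1882 genes, and for replicate 3 they were 70.6% of 1340 genes and 65.9% of 1961 genes.

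**Figure D1:**
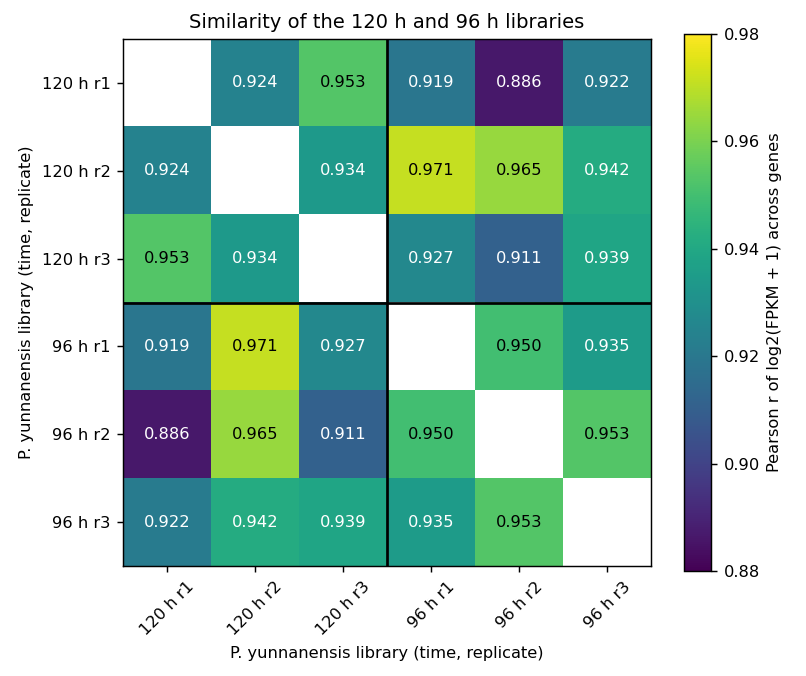
Pearson correlation of log2(FPKM + 1) across 21769 genes for each pair of the 6 P. yunnanensis libraries, with 120 h above and left of 96 h and lines between the times. The brightest cells join replicate 2 at 120 h to replicates 1 and 2 at 96 h, at 0.971 and 0.965.

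Without replicate 2 at 120 h limma still called 0 genes, and 2232 genes had an unadjusted p under 0.05, 1115 with a higher and 1117 with a lower estimate at 120 h. The smallest adjusted p was then 0.0993, against 0.924 with all libraries. Without replicate 1 at 120 h the count at an unadjusted p under 0.05 was 399, without replicate 3 it was 542, and without replicate 2 at 96 h it was 456. Leaving out replicates 1 and 3 at 96 h gave 1169 and 1000 genes, and without replicate 3 at 96 h the higher estimates outnumbered the lower ones, at 532 and 468.

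**Figure D2:**
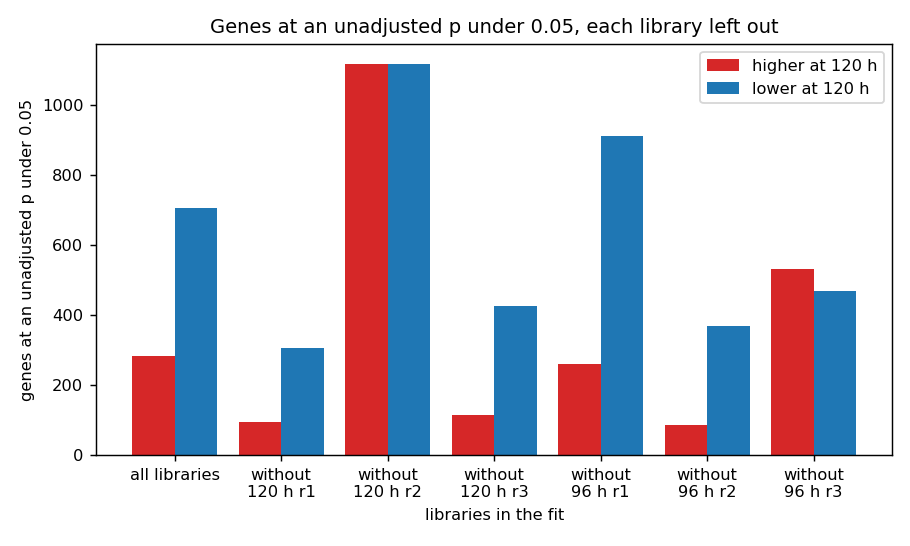
Number of genes at an unadjusted p under 0.05 with a higher (red) or lower (blue) estimate at 120 h than at 96 h in P. yunnanensis, with all libraries and with each compared library left out. The bars reach 1115 and 1117 without replicate 2 at 120 h, and 283 and 704 with all libraries.

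The measures of whole libraries overlapped between the times. Genes at 1 FPKM or more numbered 21364, 20553 and 21721 in the 120 h libraries and 20598, 21338 and 22450 in the 96 h libraries. They averaged 21213 ± 599 (SD, n = 3) at 120 h, against 21462 ± 932 (SD, n = 3) at 96 h (exact permutation test, two-sided, p = 0.8, where the smallest p that 3 against 3 allows is 0.1). The 20 most abundant genes held 8.01%, 10.6% and 7.73% of all FPKM at 120 h, against 9.80%, 8.12% and 5.74% at 96 h. The number of fragments is unknown, and the relative depth read from the lowest values was 0.880, 0.841 and 1.05 at 120 h and 1, 0.832 and 1.11 at 96 h, in units of replicate 1 at 96 h.

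In many genes the interval of the fit was narrow enough to bound the change, with the libraries taken as labelled. The median standard error of the log2 change was 0.31, and the 95% interval reached a median of 0.69 to either side of the estimate. In 12099 genes (55.6%) the interval, which is not adjusted for the number of genes, lay wholly within a 2-fold change in either direction on the log2(FPKM + 1) scale. This share was 72.0% of 3138 genes with a mean of 50 FPKM or more over the 6 libraries, 64.9% of 12478 genes at 5 to 50 FPKM and 28.3% of 6153 genes under 5 FPKM. In the remaining genes the interval reached a 2-fold change or more in at least one direction. A p that misses the threshold does not show that their level stayed the same. The estimates also moved with single libraries. Genes with an estimate of at least 2-fold numbered 784 with all libraries, 630 without replicate 1 at 120 h and 1585 without replicate 2 at 120 h. Replicates are not known to be separate plants, so the intervals may not cover differences between plants.

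The larger estimates ran mostly downwards. An estimate of at least 2-fold was found in 784 genes, 140 higher and 644 lower at 120 h, none of which passed the adjusted test. The lower ones were in excess under every scaling tried, at 660 lower and 111 higher after median ratio scaling, 626 and 168 after quantile normalization, and 700 and 200 on the TPM scale. They were also in excess without each library in turn. The split was 955 lower and 630 higher without replicate 2 at 120 h, and 998 lower and 213 higher without replicate 1 at 96 h. It was nearest to even without replicate 3 at 96 h, at 619 lower and 454 higher. Among the 784 genes, all 3 libraries at 120 h were above all 3 at 96 h in 57 and below them in 308. By level, 341 of the 784 had a mean under 5 FPKM, 377 lay at 5 to 50 FPKM and 66 at 50 FPKM or more.

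Over all tested genes regardless of size, the 120 h libraries were all above the 96 h libraries in 946 genes (4.35%) and all below in 1292 (5.94%). Which of these was larger turned with the scaling, at 1371 above and 1236 below after median ratio scaling, 1820 and 1125 after quantile normalization, and 1169 and 1159 on the TPM scale. Genes with a mean of 50 FPKM or more held 164 above (5.23%) and 251 below (7.999%). Genes at 5 to 50 FPKM held 563 above (4.51%) and 648 below (5.19%), and genes under 5 FPKM held 219 (3.56%) and 393 (6.39%). Without rescaling, both directions together held 2238 of 21769 genes. If 3 and 3 libraries lay in random order, a share of 0.1 would not overlap, both directions together. The count is close to that share and by itself marks no gene as changed.

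**Figure D3:**
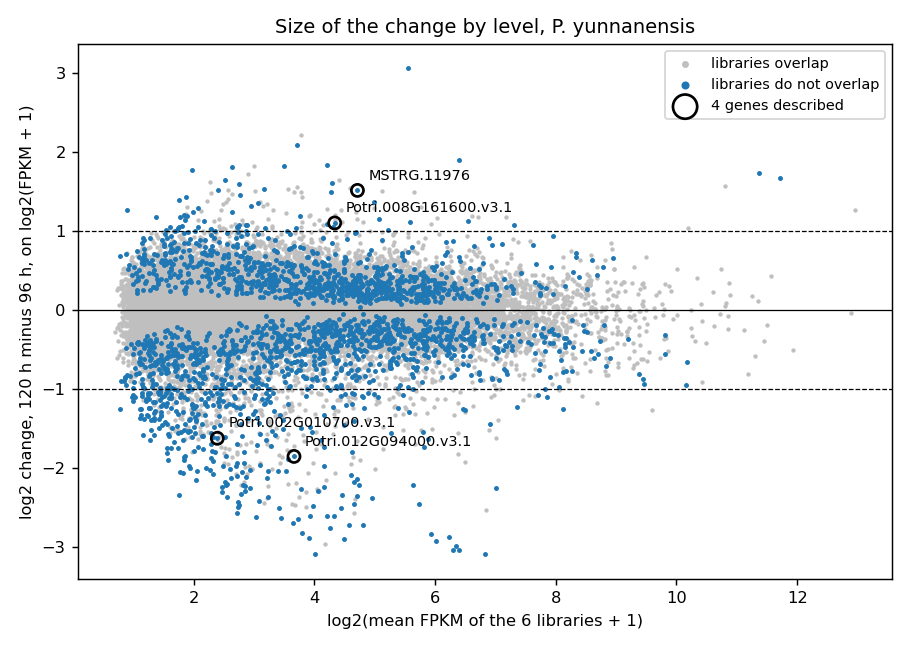
Log2 change at 120 h minus 96 h against the log2 of the mean FPKM plus 1 for 21769 genes of P. yunnanensis. Blue points are genes whose libraries do not overlap between the times, dashed lines mark a 2-fold change, and circles mark 4 genes described in the text; below the lower line lie 644 genes and above the upper line 140.

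Few genes crossed the entry level of 1 FPKM between the times in all libraries. In 17 genes the level was 1 FPKM or more in all 3 libraries at 120 h and under 1 FPKM in all 3 at 96 h, and their highest 120 h mean was 2.62 FPKM. The reverse held in 72 genes, whose highest 96 h mean was 8.54 FPKM. Both kinds of gene entered the comparison through a single time, so a difference between their groups was fixed by the entry rule and supports nothing. At the edge of the rule, 963 genes reached 1 FPKM in exactly 3 of the 6 libraries, with a median level of 1.15 FPKM, and 1065 reached it in exactly 2 and stayed out, with a median level of 0.845 FPKM.

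The identifiers gave only a coarse view of genome position. Of the tested genes, 20829 carry the number of a chromosome, 538 the letter of an unplaced scaffold and 402 the name of an assembled locus. The median log2 change was 0.051 in chromosome genes, -0.075 in scaffold genes and -0.11 in assembled loci. The 120 h libraries were all above the 96 h libraries in 15 scaffold genes and all below in 63, and in assembled loci these counts were 11 and 44. In either direction together this was 14.5% of scaffold genes and 13.7% of assembled loci, beside 10.1% of chromosome genes, and these shares were not compared by a test. Across the 19 chromosomes, the share of genes at an unadjusted p under 0.05 lay between 3.25% on chromosome 13 and 6.18% on chromosome 8, and the median log2 change lay between 0.0093 and 0.077.

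Since no gene passed, the genes described here are those with the smallest unadjusted p in each direction among genes of at least 5 FPKM whose libraries did not overlap. Potri.008G161600.v3.1 stood at 28.1, 25.1 and 26.5 FPKM at 120 h, against 12.9, 10.5 and 12.1 FPKM at 96 h. Every 120 h library was above every 96 h library, by a log2 change of 1.10 (SE 0.17, unadjusted p = 9.81e-05, adjusted p = 0.924, limma). The gene was not at its highest at 120 h. Its 48 h libraries held 19.8, 21.9 and 27.0 FPKM, which overlaps the 120 h range, and its 0 h libraries were spread over 13.4, 143 and 108 FPKM. The 96 h libraries were thus the lowest of the time course.

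MSTRG.11976, an assembled locus, stood at 38.9, 43.7 and 29.4 FPKM at 120 h, against 19.5, 12.3 and 7.51 FPKM at 96 h. The log2 change was 1.51 (SE 0.32, unadjusted p = 0.000949, adjusted p = 0.924, limma). Its 120 h libraries were above all earlier ones, which held 15.3, 13.2 and 21.8 FPKM at 48 h and 12.6, 10.7 and 12.5 FPKM at 0 h.

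Potri.012G094000.v3.1 stood at 4.74, 5.46 and 3.19 FPKM at 120 h, against 20.02, 13.5 and 23.0 FPKM at 96 h. The log2 change was -1.85 (SE 0.27, unadjusted p = 5.65e-05, adjusted p = 0.924, limma). That unadjusted p was the smallest among genes of at least 5 FPKM whose libraries did not overlap. Its level was 0, 3.02 and 1.41 FPKM at 0 h and 13.5, 9.72 and 9.77 FPKM at 48 h, so its group mean was highest at 96 h. All 12 P. davidiana libraries list it at 0, and whether the gene is unexpressed there was not tested.

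Potri.002G010700.v3.1 stood at 1.48, 1.77 and 1.24 FPKM at 120 h, against 4.22, 9.67 and 7.09 FPKM at 96 h. The log2 change was -1.62 (SE 0.31, unadjusted p = 0.000418, adjusted p = 0.924, limma). Its 120 h libraries were below all 9 earlier P. yunnanensis libraries, which held 3.57, 4.93 and 4.28 FPKM at 48 h and 27.96, 9.54 and 7.95 FPKM at 0 h. With a pseudocount of 5 its log2 change was -0.86, and over its alternatives the value ran from -2.09 to -0.86. Over all alternatives the adjusted p of these 4 genes lay between 0.0535 and 1.000. None changed direction, which only the scalings could have altered, since the genes were chosen for libraries that do not overlap.

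**Figure D4:**
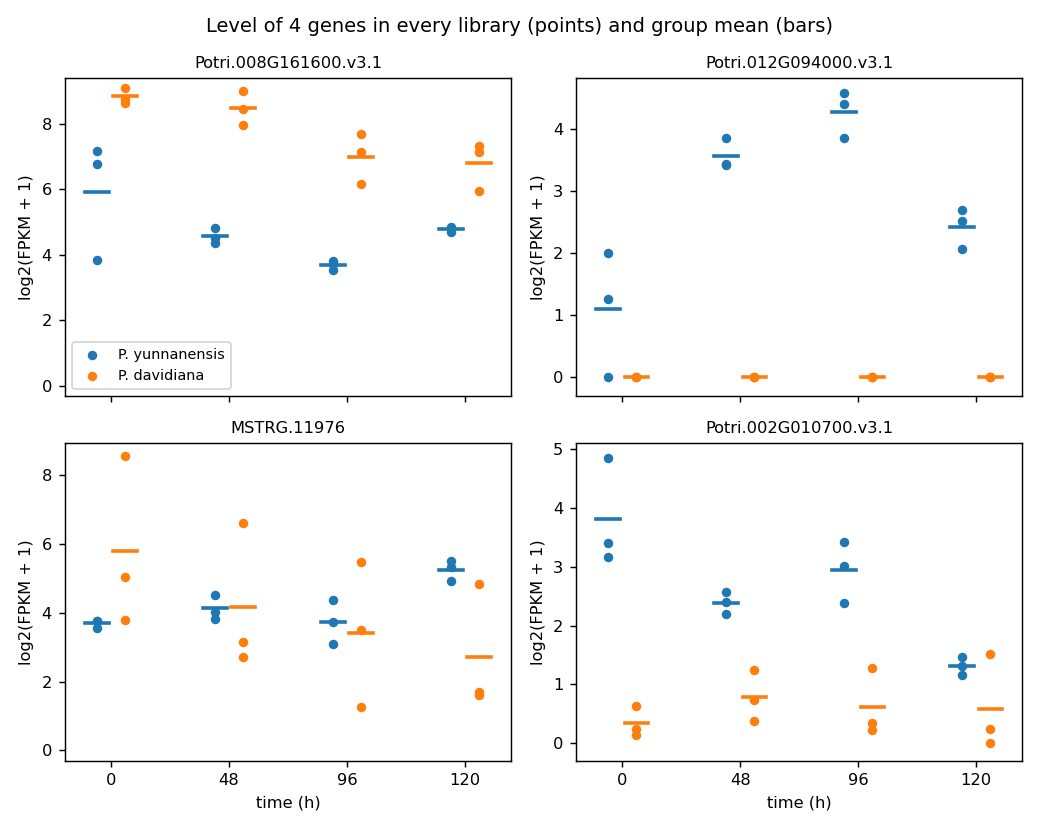
Level on the log2(FPKM + 1) scale of the 4 genes at 0, 48, 96 and 120 h in P. yunnanensis (blue) and P. davidiana (orange), where points are libraries, 3 per group, and short lines are group means of the log2 values. In P. yunnanensis the 120 h points lie above the 96 h points in the left panels and below them in the right panels.

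Potri.012G085800.v3.1 was picked out after its values were seen, because alternatives called it more than once. It stood at 4.60, 41.9 and 10.9 FPKM at 120 h, against 104, 97.98 and 99.9 FPKM at 96 h, and replicate 2 at 120 h lay nearest to the 96 h level. The log2 change was -2.84 (SE 0.60, adjusted p = 0.924, limma). The gene was at 69.6 to 141 FPKM in the 48 h libraries and at 98.5 to 168 FPKM in the 0 h libraries, all above the 120 h range. It was among 8 genes, 6 of them lower at 120 h, that passed when all 24 libraries shared 1 spread per gene (adjusted p = 0.0272, limma), and 3 of the 8 were listed at 0 in every P. davidiana library. Its adjusted p was 0.0993 without replicate 2 at 120 h and 0.0688 with estimated library weights, and over 19 alternatives it ran from 0.0272 to 1.000.

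The same interval in P. davidiana gave no called gene either. At 120 h against 96 h, 0 of 19236 genes (0%) passed with limma. An unadjusted p under 0.05 was reached by 655 genes (3.41%), of which 491 (2.55%) had a higher estimate at 120 h and 164 (0.853%) a lower one. Median ratio scaling gave a split of 424 and 270, and quantile normalization one of 406 and 405. The 120 h libraries were all above the 96 h libraries in 1586 genes (8.24%) and all below in 543 (2.82%). That order did not hold under every scaling, with 1058 above and 1038 below after median ratio scaling, 956 and 1192 after quantile normalization, and 1402 and 657 on the TPM scale. With the replicate number as a block, which pairs the P. davidiana libraries, the count at an unadjusted p under 0.05 was 1250 and the adjusted test called 0. Estimates of at least 2-fold were higher at 120 h in 140 genes and lower in 644 in P. yunnanensis, whereas P. davidiana had 291 higher and 40 lower. The P. davidiana counts moved with single libraries, to 210 higher and 164 lower without replicate 2 at 96 h, 598 and 61 without replicate 1 at 96 h, and 524 and 53 without replicate 2 at 120 h. The difference between the species in these counts was not tested. The relative depth was 0.727 to 0.742 in the P. davidiana libraries at 120 h and 0.727 to 0.826 at 96 h.

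Whether the change differed between the species was tested directly, as the P. yunnanensis change minus the P. davidiana change, in 17954 genes that met the entry rule in both. No gene passed (0%, limma), and 554 (3.09%) had an unadjusted p under 0.05. Of these, 111 (0.618%) had a more positive estimate in P. yunnanensis and 443 (2.47%) a more negative one, and with quantile normalization the split was 381 and 369. Without replicate 2 of P. yunnanensis at 120 h the test called 1 gene, Potri.012G085800.v3.1 (difference -3.28, SE 0.43, adjusted p = 0.0324, limma), against an adjusted p of 1.000 with all libraries and of 0.0324 to 1.000 over 24 alternatives. That gene stood at 73.4, 101 and 139 FPKM in P. davidiana at 120 h and at 132, 143 and 117 FPKM at 96 h, and these libraries overlap.

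Across the 17954 genes the changes of both species were weakly related, with a Pearson r of 0.10 and a Spearman rho of 0.14 as a description over genes of 2 sets of libraries that share no sample. The relation rested in part on 1 library, since without P. yunnanensis 120 h replicate 3 the values were 0.015 and 0.068. Without replicate 1 at 120 h they were 0.12 and 0.13, and without replicate 2 at 120 h they were 0.14 and 0.18. Of 818 genes whose libraries were all higher at 120 h in P. yunnanensis, 71 (8.68%) were so in P. davidiana, where 8.24% of all 17954 genes were. These 71 were 4.80% of the 1480 such genes in P. davidiana. Of 1032 genes whose libraries were all lower at 120 h in P. yunnanensis, 50 (4.84%) were so in P. davidiana, against 2.93% of all genes, and the 50 were 9.51% of the 526 such genes in P. davidiana. The first interval of the P. yunnanensis time course, 48 h minus 0 h, was as weakly related to 120 h minus 96 h, with r = 0.10 and rho = 0.10 over 21769 genes and no library in common.

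The 4 genes described next had the smallest unadjusted p for a species difference in each direction among genes of at least 5 FPKM, and none passed. Potri.007G106700.v3.1 stood in P. yunnanensis at 16.1, 10.04 and 9.89 FPKM at 120 h against 5.87, 6.67 and 7.27 FPKM at 96 h. In P. davidiana it stood at 8.13, 8.33 and 7.06 FPKM at 120 h against 12.5, 10.6 and 12.3 FPKM at 96 h, so the groups did not overlap in either species and lay in opposite order. The changes differed by 1.28 (SE 0.28, unadjusted p = 0.000369, adjusted p = 1.000, limma).

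Potri.002G081800.v3.1 differed by 1.80 (SE 0.44, unadjusted p = 0.000841, adjusted p = 1.000, limma). It stood at 11.3, 6.75 and 9.25 FPKM at 120 h and 4.90, 1.94 and 8.85 FPKM at 96 h in P. yunnanensis, and these overlap. The P. davidiana libraries, which do not, held 45.7, 58.8 and 53.6 FPKM at 120 h and 127, 93.2 and 92.9 FPKM at 96 h. With estimated library weights its adjusted p was 0.0464, the lowest among its alternatives, which reached up to 1.000.

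On the other side, Potri.009G022300.v3.1 stood at 22.3, 33.3 and 29.3 FPKM at 120 h and at 39.0, 45.9 and 53.0 FPKM at 96 h in P. yunnanensis. Its P. davidiana libraries held 65.0, 57.0 and 85.9 FPKM at 120 h and 42.5, 33.3 and 48.4 FPKM at 96 h, again with no overlap and in the opposite order. The changes differed by -1.41 (SE 0.35, unadjusted p = 0.000867, adjusted p = 1.000, limma). Potri.005G107700.v3.1 stood at 5.23, 4.37 and 5.27 FPKM at 120 h and 10.3, 9.12 and 16.6 FPKM at 96 h in P. yunnanensis. The P. davidiana libraries held 11.3, 7.76 and 9.80 FPKM at 120 h and 5.06, 4.41 and 4.18 FPKM at 96 h, and neither pair of groups overlapped. Its changes differed by -2.01 (SE 0.50, unadjusted p = 0.000945, adjusted p = 1.000, limma). In stem tissue, fewer cells of a type and less RNA per cell cannot be told apart in any of these values.

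**Figure D5:**
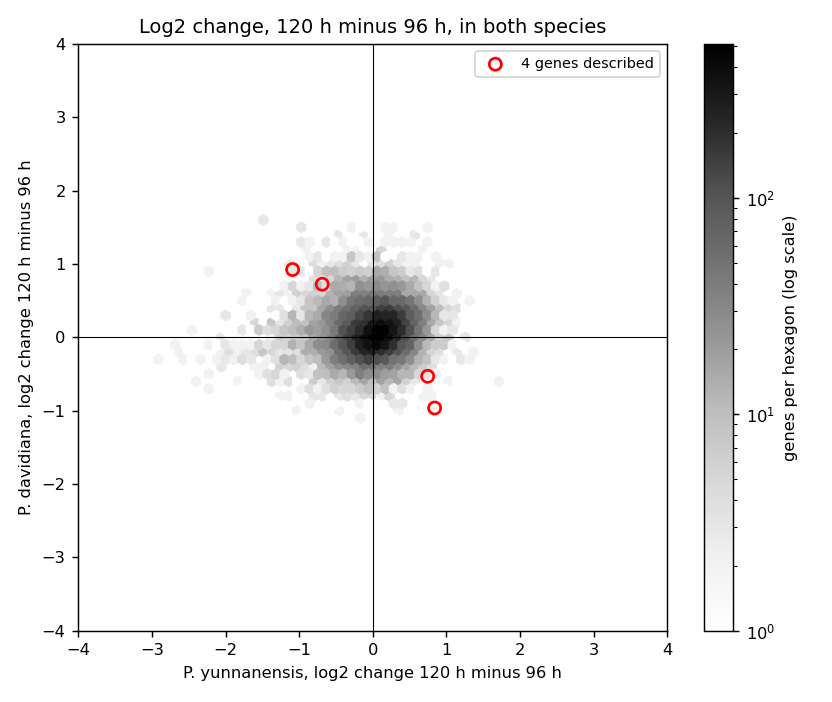
Log2 change at 120 h minus 96 h in P. yunnanensis (horizontal) and P. davidiana (vertical) for 17954 genes, as counts per hexagon on a log scale, with 4 genes circled. The cloud centres near 0 in both directions, with a Pearson r of 0.10. Without each P. yunnanensis 120 h library in turn, r ran from 0.015 (without replicate 3) to 0.14 (without replicate 2). The circled genes lie on opposite sides of 0 in the species.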

How the data were processed

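Stem RNA of 2 poplar species was sequenced in 24 libraries, grouped by the species, time and replicate number in their titles. The authors deposited 1 table of FPKM values per gene and library, per the file headers. The sources used here name no aligner, counting tool or genome build. Identifiers begin with Potri, or with MSTRG for assembled loci, and were not paired with names, so gene lists prepared by name were not used. FPKM depends on the gene length and on the total of mapped fragments, and so a change in abundant genes moves the others. Nothing says that replicates came from separate plants, so the spread behind the p-values may be technical.

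Genes with 1 FPKM in at least 3 of the 6 compared libraries were fitted on log2(FPKM + 1), which understates changes of low genes, with limma 3.58.1 in R 4.3.3. The fit held the 9 libraries of a species at 48, 96 and 120 h (6 residual degrees of freedom) or the 18 of both species, with a variance trend on the mean. Libraries at 0 h were left out because earlier results of these data showed them to vary more. The script was tested on simulated data. Named genes, 2 per direction, had at least 5 FPKM in a group and, within P. yunnanensis, no overlap of libraries; none being called, those with the smallest unadjusted p were taken. The members, rules and settings were chosen with earlier results of these data known.

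Relative depth was the most frequent ratio of low values (0.03 to 0.3 FPKM) of P. yunnanensis 96 h replicate 1 to those of the library. The number of fragments is unknown, so no counting interval is given. Libraries with the same replicate number deviated together in P. davidiana, with correlations between 120 and 96 h of 0.564, 0.452 and 0.222, all above 0.1. In P. yunnanensis these were 0.028, 0.408 and 0.322, so only the P. davidiana numbers were taken as pairs. The main fits held no replicate block in either species, and the block was an alternative. No 2 of the 9 P. yunnanensis libraries at 48, 96 and 120 h held identical values. Python 3.11.15, numpy 2.4.6, pandas 2.3.3, scipy 1.17.1 and matplotlib 3.10.9 were used.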

Additional observations from a re-analysis of the deposited data

How the results depend on the processing

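The count of 0 called genes in P. yunnanensis at 120 h against 96 h held in 19 of 20 alternatives: pseudocounts of 0.1 and 5, no filter, a filter of 5 FPKM, median ratio, quantile and TPM scaling, no variance trend, other sets of libraries, library weights, a required 2-fold change, a replicate block, and each library left out (0 to 0 genes). The exception was the spread shared by all 24 libraries, with 8 genes. A required 2-fold change can only remove called genes, so its count of 0 was fixed in advance. In P. davidiana the count was 1 with all 12 libraries of the species (Potri.001G222800.v3.1) and 6 with all 24 libraries, and 0 without each library. For the difference between the species it was 1 with no filter (Potri.001G222800.v3.1 again), 12 with library weights and 0 to 1 without each library. The replicate block gave 0 genes in each comparison. For the difference between the species it gave 987 genes at an unadjusted p under 0.05 against 554 without it. In P. yunnanensis, where the numbers were not taken as pairs, it gave 1450 such genes against 987 without it. Library weights raised that number to 6506 in P. yunnanensis, 3988 higher and 2518 lower at 120 h where the unweighted fit had 283 and 704, with 96 h replicate 2 and 120 h replicate 3 weighted 2.77 each and 120 h replicate 2 weighted 0.479. No named gene changed direction, which only the scalings could have altered in the genes chosen for libraries that do not overlap. The cause of these differences was not tested. The unknown depth limits the low genes most.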

Other observations

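Potri.001G222800.v3.1, singled out after its values were seen, was the only gene called in P. davidiana when all 12 libraries of that species entered the limma fit (adjusted p = 0.0275, 0.216 with the 9 libraries from 48 h on, and 8.07e-06 to 1.000 over 19 alternatives). It stood at 12.5, 9.15 and 17.95 FPKM in P. davidiana at 120 h and at 1.45, 0.194 and 1.43 FPKM at 96 h, and its 3 libraries at 0 h list it at 0. In P. yunnanensis every 120 h library lists it at 0, and it stood at 0.213, 0 and 0 FPKM at 96 h. It missed the entry rule there. The SE of its log2 change in P. davidiana was 0.355 with the 9 libraries and 0.325 with all 12 libraries of the species. With all 24 libraries the SE was 0.251 and the adjusted p in P. davidiana was 8.07e-06 (limma). Why the SE differed between these fits was not tested.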
